A study of Mus musculus with 21 samples.

Results

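The genes described are 10 genes of the inflammasome and interleukin-1 pathway: Il1b, Il1rn, Il1r2, Il18, Nlrp3, Mefv, Aim2, Pycard, Casp1 and Gsdmd. They were chosen by name, with earlier results of these data known. Matching by symbol found all 10 among the 27179 gene IDs of the count table. All 10 had enough counts to be tested, as did 13275 genes in all. RNA was sequenced from sorted cells of C57BL/6 mice in 21 libraries, 3 in each of 7 groups. The groups were R1, R2 and R3 cardiac macrophages of mice given CAWS, R1, R2 and R3 cardiac macrophages of naive mice, and monocytes from the spleens of naive mice. CAWS is the water-soluble complex of Candida albicans, which gives mice a vasculitis used as a model of Kawasaki disease. Per the labels, R1 cells lack surface Ccr2 and are low in MHC-II, R2 cells lack Ccr2 and are high in MHC-II, and R3 cells carry Ccr2 and are high in MHC-II. The monocytes were sorted as Ccr2-positive. Each replicate is an independent pool of mice, and each heart pool was divided into the 3 populations. Neither the labels nor the files give the dose and timing of CAWS or the age and sex of the mice.

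Interleukin-1 beta and interleukin-18 are made as inactive precursors. An inflammasome is a complex in which a sensor protein recruits the adaptor ASC, encoded by Pycard, and activates the protease caspase-1, which cuts both precursors and gasdermin D, the protein that then forms pores in the cell membrane. Il1rn encodes the interleukin-1 receptor antagonist, a secreted or intracellular protein that occupies the receptor without signalling, and Il1r2 encodes a decoy receptor that binds interleukin-1 without signalling. Interleukin-1 is known to drive the coronary arteritis of mice injected with fungal or bacterial cell wall extracts. RNA levels do not report cutting or release of these proteins, which were not measured here.

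Library totals ran from 12800136 to 23006155 counts. The summed level of 6 macrophage markers was 10800 to 17910 CPM in the cardiac libraries, against 4211 to 4891 CPM in the monocytes, where CPM is a gene's read count scaled to its library's total. Ccr2 RNA averaged 80.5, 231 and 3665 CPM in CAWS R1, R2 and R3, against 6.58, 29.3 and 2389 CPM in naive R1, R2 and R3. H2-Ab1, an MHC-II chain, averaged 1300, 8677 and 10270 CPM in CAWS R1, R2 and R3, against 604, 10610 and 12270 CPM in naive R1, R2 and R3. The summed level of 12 neutrophil markers was 45.4 to 109 CPM in the cardiac libraries, against 614 to 776 CPM in the monocytes. Of these markers, Ly6g and Camp had no count in any cardiac library, whereas others did. 1 naive R3 library had a fibroblast marker sum of 182 CPM, the highest of all libraries. A lower level in a bulk sample cannot tell fewer cells of a type from less RNA per cell.

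Windows of 250 bases before the annotated start are shown for the ligand gene Il1b, the antagonist gene Il1rn and the sensor gene Mefv. They come from RefSeq on GRCm38.p6, read 5′ to 3′ on the gene's strand. Il1rn has several annotated starts, of which the farthest upstream and the farthest downstream are shown. The starts used for Il1b and Mefv, 129371139 and 3718124, lie inside the annotated spans of those genes, which reach 129371164 and 3718211. These windows therefore overlap the spans in part. The windows are Il1b at chr2:129371140-129371389 (minus strand), Il1rn at chr2:24336610-24336859 and chr2:24345121-24345370 (plus strand) and Mefv at chr16:3718125-3718374 (minus strand). Capitals mark matches, on either strand, to 1 of 5 motifs.
Il1b: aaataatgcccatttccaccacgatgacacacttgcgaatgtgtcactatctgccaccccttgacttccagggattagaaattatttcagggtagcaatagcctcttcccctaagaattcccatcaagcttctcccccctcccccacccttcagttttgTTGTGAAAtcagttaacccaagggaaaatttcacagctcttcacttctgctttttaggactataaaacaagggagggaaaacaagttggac
Il1rn, upstream start: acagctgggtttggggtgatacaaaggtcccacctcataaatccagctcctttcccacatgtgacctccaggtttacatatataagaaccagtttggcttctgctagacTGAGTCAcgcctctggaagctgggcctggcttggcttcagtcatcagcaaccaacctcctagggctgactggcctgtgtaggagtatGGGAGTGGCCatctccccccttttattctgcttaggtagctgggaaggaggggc
Il1rn, downstream start: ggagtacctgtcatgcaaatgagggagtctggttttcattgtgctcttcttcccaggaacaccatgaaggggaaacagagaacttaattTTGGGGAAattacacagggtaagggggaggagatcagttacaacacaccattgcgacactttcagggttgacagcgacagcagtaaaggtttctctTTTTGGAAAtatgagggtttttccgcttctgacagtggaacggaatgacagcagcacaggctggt
Mefv: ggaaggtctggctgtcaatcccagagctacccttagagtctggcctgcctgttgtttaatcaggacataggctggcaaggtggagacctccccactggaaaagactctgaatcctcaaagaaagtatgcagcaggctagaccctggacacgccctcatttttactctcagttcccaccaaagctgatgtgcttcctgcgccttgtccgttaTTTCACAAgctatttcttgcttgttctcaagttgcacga

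The motifs searched were kB (GGGA, any 4 bases, CC), AP-1 (TGANTCA), C/EBP (TTNNGNAA), PU.1 (GAGGAA) and ISRE (GAAA, any 2 bases, GAAA). Of 32851 windows of the same length in the RefSeq table, 17.6% held the kB motif, 6.75% the AP-1 motif, 36.8% the C/EBP motif, 23.3% the PU.1 motif and 2.98% the ISRE motif. The Il1b window held 1 C/EBP match, as did the Mefv window, there on the other strand. The Mefv match lies inside the annotated span of the gene. The upstream Il1rn window held 1 AP-1 match and 1 kB match. The downstream Il1rn window held 3 C/EBP matches, of which a pair overlap within 1 run of capitals. A match is a description of letters and no evidence of binding, and a motif without a match here says only that these letters are not in the window.

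The first question was what CAWS changed in each macrophage population. Il1rn and Mefv were higher in CAWS cells in all 3 populations, and Pycard and Gsdmd were higher in CAWS R3. Il1b, Nlrp3, Casp1, Il18, Il1r2 and Aim2 passed the test in none of the 3. With edgeR's quasi-likelihood test at Benjamini-Hochberg adjusted p under 0.05, 2 of 10 genes passed in R1, 2 of 10 in R2 and 4 of 10 in R3, all higher in CAWS cells. Of all genes tested, 6.07% were higher and 2.87% lower in CAWS R1, 6.79% higher and 3.50% lower in CAWS R2, and 6.70% higher and 8.29% lower in CAWS R3. None of the 10 genes was lower in CAWS cells with edgeR fitted to all libraries. At an unadjusted p under 0.05, 4, 5 and 5 genes were higher in CAWS R1, R2 and R3 and 0 were lower, and DESeq2 gave 2, 2 and 4 higher and 0 lower. The median log2 fold change of the 10 genes was 0.30 in R1, 0.30 in R2 and 0.31 in R3, where over all genes tested it was 0.03, 0.02 and -0.06. P-values measure only the spread between these pools.

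**Figure D1:**
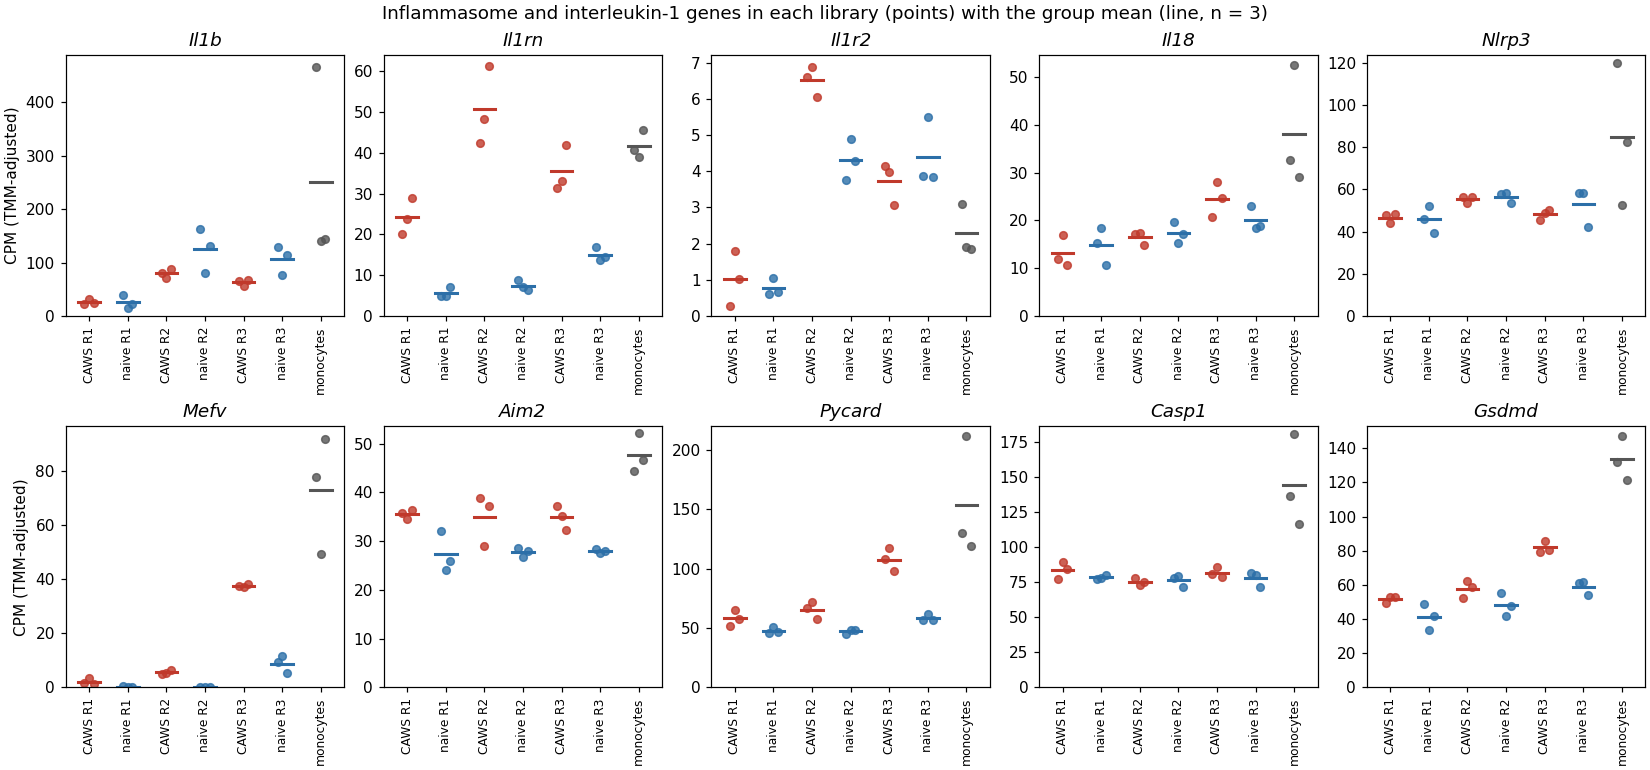
Level of each of the 10 genes in CPM (vertical axes, linear and with different ranges) in every library, by group along the horizontal axis. Points are libraries and lines are means of 3. Il1rn and Mefv points of CAWS cells lie above those of naive cells in all 3 populations, whereas those of Casp1 lie between 71.3 and 89.3 CPM in every cardiac library.

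Il1b, the interleukin-1 beta gene (gene ID 16176, chromosome 2, 129364569 to 129371164), was not past the test in any population. It measured 22.6, 31.7 and 23.6 CPM in CAWS R1, against 40.0, 14.4 and 22.8 CPM in naive R1. The naive values enclose the CAWS values, and the log2 fold change was -0.01 ± 0.47 (SE, adjusted p = 0.999). In R2 it measured 80.3, 71.1 and 87.6 CPM in CAWS cells, against 164, 80.1 and 131 CPM in naive cells. These groups overlap (-0.65 ± 0.42, adjusted p = 0.383). In R3 it measured 65.1, 56.9 and 67.9 CPM in CAWS cells, against 130, 76.1 and 114 CPM in naive cells. All 3 CAWS R3 libraries lie below all 3 naive R3 libraries, but the difference missed the threshold (-0.75 ± 0.43, adjusted p = 0.265). It passed when only those 2 groups were fitted (-0.72, adjusted p = 0.0196).

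Naive Il1b had a larger SD over pools than CAWS Il1b in each population, a difference that was not tested. The SD over the 3 pools was 5.03, 8.26 and 5.75 CPM in CAWS R1, R2 and R3, against 13.1, 42.1 and 27.5 CPM in naive R1, R2 and R3. Naive replicate 1 held the most Il1b and naive replicate 2 the least in each of R1, R2 and R3. Each heart pool was divided into the 3 populations, so these are not 3 independent observations. The overlapping noncoding gene Il1bos had 163 counts over all libraries, against 34577 for Il1b. Without a stated strand setting for the counting, reads of the 2 genes cannot be told apart.

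Il1rn, the antagonist gene (gene ID 16181, chromosome 2, 24336860 to 24351491), was higher in CAWS cells of every population. It measured 20.2, 23.7 and 29.0 CPM in CAWS R1, against 4.95, 4.84 and 7.01 CPM in naive R1. The log2 fold change was 2.13 ± 0.20 (adjusted p = 5.43e-07). In R2 it measured 42.5, 48.3 and 61.2 CPM in CAWS cells, against 8.72, 7.11 and 6.43 CPM in naive cells (2.77 ± 0.18, adjusted p = 1.09e-09). In R3 it measured 31.5, 33.1 and 41.8 CPM in CAWS cells, against 16.8, 13.7 and 14.4 CPM in naive cells (1.25 ± 0.18, adjusted p = 4.04e-05). Every CAWS library lies above every naive library of its own population, and the call held in each of the 11 alternatives run per population.

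Set side by side per gene length, the ratio of antagonist to ligand RNA was higher in CAWS cells of all 3 populations. Il1rn over Il1b, both in CPM per kilobase, was 0.442, 0.368 and 0.606 in CAWS R1, against 0.0610, 0.166 and 0.152 in naive R1. It was 0.261, 0.336 and 0.345 in CAWS R2, against 0.0263, 0.0438 and 0.0243 in naive R2. It was 0.239, 0.287 and 0.304 in CAWS R3, against 0.0641, 0.0886 and 0.0623 in naive R3. The CAWS and naive values do not overlap in any population, and every CAWS value lies above the monocyte values of 0.0430, 0.138 and 0.156. The ratio was chosen after the levels had been seen and is given with no test. In all 21 libraries it was under 1, so Il1b RNA per kilobase exceeded Il1rn RNA.

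**Figure D2:**
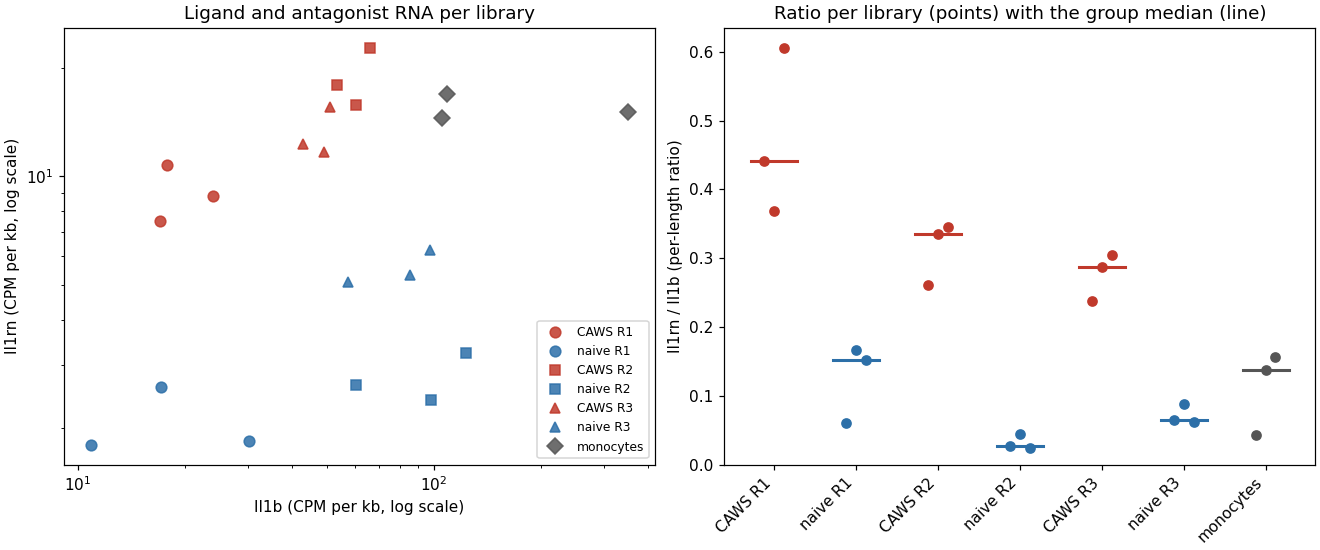
Left, Il1rn against Il1b in CPM per kilobase, both axes logarithmic, with 1 point per library. Right, the ratio of Il1rn to Il1b in each library, with lines at group medians. CAWS libraries lie above naive libraries of the same population on the Il1rn axis, and their ratios run from 0.239 to 0.606, against 0.0243 to 0.166 in naive macrophages.

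The other ligand and the decoy receptor did not pass in any population. Il18 (gene ID 16173, chromosome 9, 50554700 to 50581841) averaged 13.1 ± 3.34 CPM in CAWS R1, against 14.8 ± 3.81 CPM in naive R1 (SD, n = 3), and 16.5 ± 1.39 CPM in CAWS R2, against 17.3 ± 2.27 CPM in naive R2. In R3 it measured 20.6, 28.1 and 24.8 CPM in CAWS cells, against 23.0, 18.3 and 18.7 CPM in naive cells. The groups overlapped in each population. Its log2 fold changes were -0.18 ± 0.23, -0.07 ± 0.22 and 0.29 ± 0.22. Il18 overlaps Bco2, which had 6493 counts over all libraries against 7221 for Il18, so its level is uncertain without the strand setting. Il1r2 (gene ID 16178, chromosome 1, 40084692 to 40125230) was scarce. It measured 6.61, 6.88 and 6.05 CPM in CAWS R2, against 3.75, 4.89 and 4.27 CPM in naive R2. The 2 groups do not overlap, yet the difference missed the threshold (0.61 ± 0.25, adjusted p = 0.138). In R1 the Il1r2 groups overlapped (0.40 ± 0.52, adjusted p = 0.717), as they did in R3 (-0.26 ± 0.30, adjusted p = 0.601). The noncoding gene Gm16894 overlaps Il1r2 and had 153 counts, against 1171 for Il1r2.

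Among the 3 sensors, Mefv passed in every population, and Nlrp3 and Aim2 in none. Mefv encodes pyrin, an inflammasome sensor, and mutations in human MEFV cause familial Mediterranean fever (gene ID 54483, chromosome 16, 3706974 to 3718211). It measured 37.4, 37.1 and 38.2 CPM in CAWS R3, against 9.26, 11.7 and 5.29 CPM in naive R3. The log2 fold change was 2.09 ± 0.25 (adjusted p = 1.28e-06), and the call held in all 11 alternatives. In R2 it measured 5.09, 5.20 and 6.41 CPM in CAWS cells, against 0.0903, 0.0569 and 0.132 CPM in naive cells. Those levels are 280 reads over CAWS R2 and 6 reads over naive R2, and the log2 fold change was 5.75 ± 0.65 (adjusted p = 1.09e-06). In R1 it measured 1.47, 3.31 and 1.27 CPM in CAWS cells, against 0.643, 0 and 0.134 CPM in naive cells. Those levels are 110 reads over CAWS R1 and 15 reads over naive R1, of which 13 came from replicate 1. The log2 fold change in R1 was 2.73 ± 0.68 (adjusted p = 0.0119). That call did not hold without CAWS R1 replicate 2 (adjusted p = 0.0835), naive R1 replicate 2 (0.0554) or naive R1 replicate 3 (0.0503). Without naive R1 replicate 1 the log2 fold change was 4.77 (adjusted p = 0.00659).

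Some markers of blood-derived cells were also higher in CAWS cells, but not the same ones or as many in each population. The summed level of 8 classical monocyte markers, Ccr2 and Ly6c2 among them, was 63.0 to 235 CPM in CAWS R1 libraries, against 14.4 to 28.5 CPM in naive R1. It was 252 to 331 CPM in CAWS R2, against 24.8 to 42.4 CPM in naive R2, and 3578 to 4256 CPM in CAWS R3, against 2087 to 2670 CPM in naive R3. Of the 8, 3 rose in CAWS R1, 6 in CAWS R2 and 2 in CAWS R3, and 0 fell. Ccr2 is also the gene R3 was sorted on. At an 8-marker sum of 8083 to 12000 CPM, the monocytes held 78.1, 49.4 and 92.1 CPM of Mefv. Dendritic cell markers rose in 4 of 8 in CAWS R1, 6 of 8 in CAWS R2 and 0 of 8 in CAWS R3. Of the markers tested in CAWS against naive R1, 3 of 3 of NK cells, 2 of 4 of mast cells, 3 of 5 of cardiomyocytes, 1 of 4 of endothelial cells and 1 of 9 of neutrophils also rose. In CAWS against naive R2, 1 of 4 of mast cells and 1 of 4 of endothelial cells rose. In CAWS against naive R3, 2 of 5 of cardiomyocytes and 2 of 4 of fibroblasts fell. Of 6 macrophage markers, 1 rose in CAWS R1, 1 fell in CAWS R2, and 1 rose and 1 fell in CAWS R3. The 12 neutrophil markers summed to 104 to 109 CPM in CAWS R3, against 52.6 to 65.3 CPM in naive R3, and 1 of the 9 tested rose there. The part of these cells in the levels of Mefv, Il1rn, Pycard and Gsdmd was not tested.

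Nlrp3, the sensor of membrane damage and ion efflux (gene ID 216799, chromosome 11, 59541569 to 59566955), was detected at similar levels in both treatments. It averaged 46.7 ± 2.42, 55.4 ± 1.75 and 48.1 ± 2.47 CPM in CAWS R1, R2 and R3, against 45.8 ± 6.41, 56.6 ± 2.53 and 53.0 ± 9.26 CPM in naive R1, R2 and R3. The log2 fold changes were 0.03 ± 0.19, -0.03 ± 0.19 and -0.14 ± 0.19, and the groups overlapped in all 3 populations. Aim2, the sensor of cytosolic DNA (gene ID 383619, chromosome 1, 173349547 to 173466040), measured 35.8, 34.6 and 36.3 CPM in CAWS R1, against 32.1, 24.1 and 25.8 CPM in naive R1. It measured 38.8, 29.0 and 37.2 CPM in CAWS R2, against 28.6, 26.7 and 28.02 CPM in naive R2. It measured 37.2, 35.2 and 32.3 CPM in CAWS R3, against 28.4, 27.5 and 27.9 CPM in naive R3. The CAWS libraries lie above the naive libraries in each population, but no difference passed, with log2 fold changes of 0.37 ± 0.13, 0.33 ± 0.12 and 0.32 ± 0.13 and adjusted p-values of 0.0661, 0.0991 and 0.0960. The CAWS and naive groups did not overlap in 5 of the 10 genes in R1, 5 in R2 and 6 in R3 (50%, 50% and 60%), against 28.5%, 36.5% and 34.9% of all genes tested. Without naive R1 replicate 1 the Aim2 difference in R1 passed (0.49, adjusted p = 0.0358). Aim2 overlaps Cadm3, which had 826 counts against 12008 for Aim2.

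Pycard, the adaptor gene (gene ID 66824, chromosome 7, 127991373 to 127993867), was higher in CAWS R3. It measured 108, 117 and 97.8 CPM in CAWS R3, against 56.5, 61.4 and 56.9 CPM in naive R3. The groups do not overlap, and the log2 fold change was 0.88 ± 0.16 (adjusted p = 5.2e-04). In R2 it measured 66.7, 72.3 and 57.7 CPM in CAWS cells, against 45.2, 48.3 and 47.9 CPM in naive cells (0.48 ± 0.16, adjusted p = 0.0574). In R1 it measured 51.9, 64.9 and 57.6 CPM in CAWS cells, against 46.0, 50.8 and 46.8 CPM in naive cells (0.28 ± 0.16, adjusted p = 0.309). The CAWS and naive groups of R1 and of R2 do not overlap either, and neither difference passed. The R2 difference passed when only those groups were fitted (adjusted p = 0.00382).

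Casp1, the gene of the protease that cuts the precursors (gene ID 12362, chromosome 9, 5298517 to 5307281), did not pass in any population. It averaged 83.6 ± 6.13, 75.5 ± 2.38 and 81.8 ± 3.79 CPM in CAWS R1, R2 and R3, against 78.5 ± 1.40, 76.3 ± 4.41 and 77.6 ± 5.51 CPM in naive R1, R2 and R3. Its log2 fold changes were 0.09, -0.02 and 0.07, each ± 0.12. Gsdmd, the gene of the pore-forming protein (gene ID 69146, chromosome 15, 75862144 to 75867408), measured 79.4, 86.0 and 80.7 CPM in CAWS R3, against 61.4, 61.5 and 54.0 CPM in naive R3. The groups do not overlap and the log2 fold change was 0.48 ± 0.13 (adjusted p = 0.0145). That call was lost without naive R3 replicate 3 (adjusted p = 0.0671) and without CAWS R3 replicate 2 (0.0713). Gsdmd did not pass in R1 (0.32 ± 0.13, adjusted p = 0.135) or R2 (0.26 ± 0.13, adjusted p = 0.217).

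**Figure D3:**
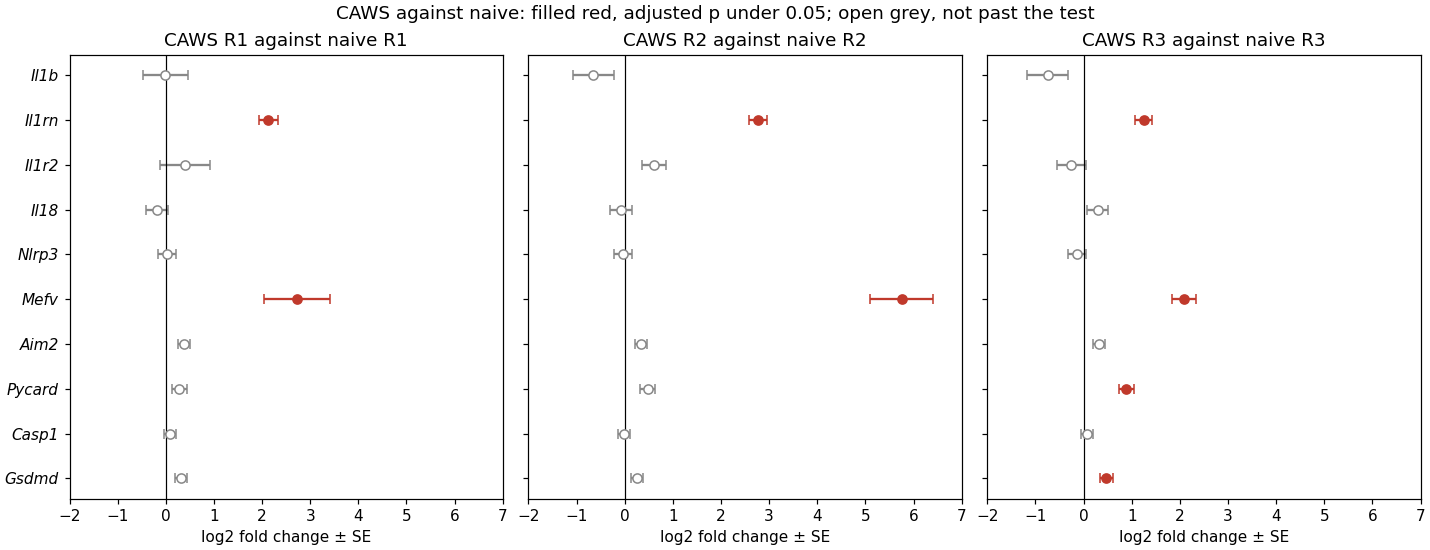
Log2 fold change of each of the 10 genes, CAWS over naive, in R1, R2 and R3 (horizontal axes, same range), with bars of 1 SE. Filled red points passed the test and open grey points did not. Il1rn and Mefv are filled in every panel, and Pycard and Gsdmd in R3.

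Whether the size of the CAWS effect differed between populations was tested as a difference of effects. The effect was smaller in R3 than in R2 for Il1rn, with a difference of -1.52 ± 0.25 on the log2 scale (adjusted p = 0.001), and for Mefv, with a difference of -3.67 ± 0.85 (adjusted p = 0.0147). These are 2 of 10 genes lower and 0 higher, where 2.23% of all genes tested were lower and 0.0979% higher. The Il1rn difference held in all 17 alternatives. The Mefv difference was lost without naive R2 replicate 1 (adjusted p = 0.0963), replicate 2 (0.0888) or replicate 3 (0.0733), the group that held 6 Mefv reads. In CAWS cells Mefv itself was higher in R3 than in R2, so the smaller fold in R3 goes with a higher naive level. For R3 minus R1, 0 of 10 genes passed with edgeR, against 2.16% of all genes tested lower and 0.0979% higher. Pycard (higher) and Il1rn (lower) had an unadjusted p under 0.05, and DESeq2 called 1 gene. Il1rn stood there at -0.88 ± 0.27 (adjusted p = 0.0999), and it passed with DESeq2 (adjusted p = 0.0489) and with the replicate block (0.0273). Pycard stood at 0.60 ± 0.22 (adjusted p = 0.205) and passed with only the groups compared (0.62, adjusted p = 0.0398). For R2 minus R1, 0 of 10 passed with edgeR and 0 with DESeq2, against 0.0377% of all genes tested higher and 0.0151% lower, and Il1rn and Mefv had an unadjusted p under 0.05.

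The next question was how the macrophage populations differed before CAWS. The ligand and the decoy receptor were both higher in the MHC-II-high populations. In naive R2 against naive R1, Il1b (2.26 ± 0.45, adjusted p = 0.00468) and Il1r2 (2.48 ± 0.38, adjusted p = 1.84e-04) were higher and the other 8 genes did not pass, where 3.88% of all genes tested were higher and 3.25% lower. The Il1b call was lost when only those 2 groups were fitted (2.24, adjusted p = 0.0577). Il1r2 measured 3.75, 4.89 and 4.27 CPM in naive R2, against 0.594, 1.05 and 0.668 CPM in naive R1. No naive R1 library reached the lowest naive R2 library for either gene.

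Naive R3 cells held more of 5 genes than naive R1 cells and less of none, where 12.5% of all genes tested were higher and 10.7% lower. The log2 fold changes were 2.03 ± 0.45 for Il1b (adjusted p = 0.0036), 1.43 ± 0.21 for Il1rn (2.23e-05), 2.53 ± 0.39 for Il1r2 (4.41e-05), 4.89 ± 0.51 for Mefv (7.87e-08) and 0.51 ± 0.13 for Gsdmd (0.00606). The Gsdmd call failed when naive R1 replicate 2 was left out (adjusted p = 0.0603). The Mefv value was 6.94 without naive R1 replicate 1, which held 13 of the 15 naive R1 reads. Against naive R2, naive R3 held more Il1rn (1.01 ± 0.20, adjusted p = 0.00111) and Mefv (6.42 ± 0.59, adjusted p = 2.53e-08), 2 of 10 genes where 6.63% of all genes tested were higher and 5.77% lower. The naive R2 level of Mefv rests on 6 reads. Il1b did not differ past the test between naive R3 and naive R2 (-0.23 ± 0.42, adjusted p = 0.794). Nlrp3, Casp1, Aim2, Pycard and Il18 passed in none of the 3 naive comparisons, except that Pycard passed in naive R3 against naive R2 when only those groups were fitted (0.31, adjusted p = 0.0364). Markers of other cells moved as well. Of those tested in naive R3 against naive R1, 6 of 8 dendritic cell, 5 of 8 classical monocyte, 4 of 5 cardiomyocyte, 3 of 4 fibroblast, 1 of 4 mast cell and 1 of 4 endothelial markers were higher, and the dendritic sum was 276 to 540 CPM in naive R3 against 8.75 to 10.9 CPM in naive R1. In naive R3 against naive R2, 7 of 8 classical monocyte, 4 of 8 dendritic cell, 3 of 4 fibroblast and 1 of 9 neutrophil markers were higher. Against naive R1 and against naive R2 alike, 3 of 6 macrophage markers were lower in naive R3. In naive R2 against naive R1, 4 of 5 cardiomyocyte markers and 1 each of the monocyte, dendritic cell, neutrophil and B cell markers were higher. Their part in the levels of the 10 genes was not tested. The comparisons that use naive R1, and those that use naive R3, share those libraries.

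The same comparisons were then made between populations of CAWS mice. CAWS R3 held more of 7 genes than CAWS R1, where 13.1% of all genes tested were higher and 16.3% lower. The largest was Mefv (4.25 ± 0.30, adjusted p = 8.24e-11). Il1r2 (1.88 ± 0.39), Il18 (0.91 ± 0.23), Pycard (0.89 ± 0.16) and Gsdmd (0.66 ± 0.13) had adjusted p-values from 1.53e-04 to 0.00397. Il1rn (0.55 ± 0.17, adjusted p = 0.0163) lost the call without CAWS R1 replicate 1 (adjusted p = 0.0619) and without CAWS R3 replicate 3 (0.101). Il1b (1.29 ± 0.46, adjusted p = 0.0436) lost the call without any 1 of the 6 libraries, at adjusted p-values of 0.0504 to 0.113, and with no filter on low counts (0.0642). Il1b levels of CAWS R3 and CAWS R1 do not overlap. The Il1r2 value was 2.56 without CAWS R1 replicate 2. Of the markers tested, 5 of 8 classical monocyte and 4 of 8 dendritic cell markers were higher in CAWS R3 than in CAWS R1. So were 1 of 9 neutrophil and 1 of 6 macrophage markers. Lower in CAWS R3 were 4 of 6 macrophage, 3 of 4 mast cell, 2 of 3 NK cell and 1 of 9 neutrophil markers. Their part was not tested.

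CAWS R2 held more of 3 genes than CAWS R1, where 2.46% of all genes tested were higher and 1.31% lower. Il1rn was higher by 1.06 ± 0.16 (adjusted p = 3.37e-04), Il1r2 by 2.69 ± 0.34 (3.55e-05) and Mefv by 1.49 ± 0.37 (0.0178) on the log2 scale. The Mefv call failed when CAWS R2 replicate 3 (adjusted p = 0.0801), CAWS R1 replicate 1 (0.104) or CAWS R1 replicate 3 (0.126) was left out. The Il1r2 value was 3.33 without CAWS R1 replicate 2. In the same comparison 7 of 8 dendritic cell, 2 of 8 classical monocyte, 3 of 3 B cell and 1 of 4 mast cell markers were higher, and 1 of 3 NK cell and 1 of 4 mast cell markers lower, and their part was not tested. Il1b stood at 1.62 ± 0.45 (adjusted p = 0.0623) and passed with DESeq2 (0.0128), with the replicate block (0.0278) and with only the groups compared (2.63e-06). CAWS R3 against CAWS R2 gave 3 genes higher and 1 lower, where 5.51% of all genes tested were higher and 9.76% lower. Mefv (2.75 ± 0.26, adjusted p = 2.12e-08), Pycard (0.71 ± 0.16, adjusted p = 0.00271) and Gsdmd (0.50 ± 0.13, adjusted p = 0.00893) were higher in CAWS R3. The Gsdmd call was lost without CAWS R2 replicate 1 (adjusted p = 0.0541). Il1rn was lower in CAWS R3 (-0.51 ± 0.16, adjusted p = 0.0342), a call lost without 4 of the 6 libraries, namely CAWS R2 replicate 2 (0.0868), CAWS R2 replicate 3 (0.231), CAWS R3 replicate 1 (0.219) and CAWS R3 replicate 2 (0.140), and with no filter on low counts (0.0584). With only the groups compared, Il1r2 (-0.78, adjusted p = 0.0180) and Il18 (0.61, adjusted p = 0.0088) passed as well, against -0.82 ± 0.28 (0.0514) and 0.57 (0.0906) with all libraries. Of the markers tested, 4 of 8 of classical monocytes and 1 of 9 of neutrophils were higher in CAWS R3 than in CAWS R2. Lower in CAWS R3 were 4 of 6 of macrophages, 2 of 5 of cardiomyocytes and 1 each of dendritic cells, B cells and mast cells. Their part was not tested.

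Across all 7 groups the order of levels differed by gene. Il1b was highest in monocytes and then ran through naive R2, naive R3, CAWS R2, CAWS R3, CAWS R1 and naive R1. In that order only CAWS R2 and CAWS R3, and CAWS R3 and CAWS R1, are neighbours with no overlap. Il1rn ran from CAWS R2 at the top through monocytes, CAWS R3, CAWS R1, naive R3 and naive R2 to naive R1, with overlap between CAWS R2 and monocytes, monocytes and CAWS R3, and naive R2 and naive R1. Il1r2 was highest in CAWS R2, at 6.51 ± 0.43 CPM, and lowest in naive R1, at 0.772 ± 0.25 CPM. Mefv ran through monocytes, CAWS R3, naive R3, CAWS R2, CAWS R1, naive R1 and naive R2, with overlap between naive R3 and CAWS R2 and between naive R1 and naive R2. Per gene length, Casp1 averaged 55.3 CPM per kilobase in CAWS R1 and 51.9 in naive R1, the highest of the 10 genes there, and Mefv averaged 0.615 in CAWS R1 and 0.0789 in naive R1, the lowest.

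Naive R1, R2 and R3 and CAWS R3 macrophages were then compared with the splenic monocytes. Nearly all 10 genes were lower in each of these groups of macrophages. CAWS R1 and CAWS R2 were not compared with monocytes, and CAWS R2 had the highest group mean of Il1rn and of Il1r2. Of the 10, 10 were lower in naive R1, where 30.8% of all genes tested were lower and 32.5% higher. In naive R2, 9 were lower and 1 higher, where 30.5% of all genes were lower and 33.1% higher. In naive R3 cells, 9 were lower and 1 higher, where 27.1% of all genes were lower and 31.9% higher. In CAWS R3, 8 were lower and 0 higher, where 22.8% of all genes were lower and 24.8% higher, and 1 was higher there at an unadjusted p under 0.05 and 0 with DESeq2. The median log2 fold change of the 10 genes in CAWS R3 was -0.67, and in the naive populations R1, R2 and R3 it was -1.63, -1.06 and -1.05. Over all genes it was 0.01 in CAWS R3 and 0.05, 0.08 and 0.06 in the naive populations. The 4 comparisons share the monocyte libraries, and tissue and cell type cannot be told apart in them. In the comparison of CAWS R3, treatment differs as well, because the monocytes came from naive mice. Of 9 neutrophil markers tested, 7 were lower in naive R1, R2 and R3 alike and 8 in CAWS R3, and 0 were higher. Of 8 classical monocyte markers, 8, 8, 7 and 7 were lower in naive R1, R2, R3 and CAWS R3. In each comparison 5 of 6 macrophage and 5 of 5 cardiomyocyte markers were higher. Some markers of other cells moved as well. The part of these cells in the levels of the 10 genes was not tested.

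Among the 10 genes Mefv had the largest difference in each naive population but not in CAWS R3, where Il1b had it. Mefv stood at -0.96 ± 0.21 in CAWS R3, -3.05 ± 0.24 in naive R3, -7.94 ± 0.40 in naive R1 and -9.47 ± 0.45 in naive R2, the last pair resting on 15 and 6 reads. The naive R1 value was -10.001 without naive R1 replicate 1. In CAWS R3, naive R3, naive R1 and naive R2, Pycard stood at -0.51 ± 0.15, -1.40 ± 0.16, -1.68 ± 0.16 and -1.70 ± 0.16, and Gsdmd at -0.70 ± 0.13, -1.18 ± 0.13, -1.68 ± 0.13 and -1.46 ± 0.13. The Pycard call in CAWS R3 (adjusted p = 0.00854) was lost without monocytes replicate 2 (-0.16, adjusted p = 0.246) and with only the groups compared (0.123). Casp1 lay between -0.92 and -0.82 in all 4, with adjusted p-values of 7.25e-07 to 7.52e-06. Il1rn did not pass in CAWS R3 (-0.23 ± 0.16, adjusted p = 0.248), and stood at -2.91 ± 0.20, -2.49 ± 0.18 and -1.48 ± 0.17 in the naive populations R1, R2 and R3, all past the test. Il1rn measured 31.5, 33.1 and 41.8 CPM in CAWS R3, against 40.6, 39.1 and 45.6 CPM in monocytes, and those ranges overlap.

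The monocyte libraries did not behave alike. Il1b measured 466, 140 and 144 CPM in monocytes replicates 1, 2 and 3, and Nlrp3 measured 120, 52.5 and 82.4 CPM, so replicate 1 was highest for both. Pycard measured 130, 212 and 120 CPM, with replicate 2 highest. Il1b was lower in naive R2 than in monocytes (adjusted p = 0.0465), and without monocytes replicate 1 the log2 fold change was -0.22 (adjusted p = 0.562). The call also failed without naive R2 replicate 2 (adjusted p = 0.149) or 3 (0.0853), with no filter (0.0805) and with only the groups compared (0.101). Il1b was lower in naive R3 too (-1.23 ± 0.42, adjusted p = 0.0196), at -0.45 without monocytes replicate 1 (adjusted p = 0.224), and the call failed without naive R3 replicate 2 (0.0784) and with only the groups compared (0.0504). In CAWS R3 it stood at -1.98 ± 0.44 and in naive R1 at -3.26 ± 0.47, both past the test in every alternative, with values of -1.15 in CAWS R3 and -2.47 in naive R1 without monocytes replicate 1. Nlrp3 was lower in naive R2 (-0.59 ± 0.19, adjusted p = 0.00968), at -0.28 without monocytes replicate 1 (adjusted p = 0.123). With only the groups compared, Nlrp3 missed the threshold in naive R2 (adjusted p = 0.0825), naive R3 (0.0746) and CAWS R3 (0.0503). Il18 was lower in CAWS R3 (-0.63 ± 0.21, adjusted p = 0.0177), a call lost without monocytes replicate 2 (-0.28, adjusted p = 0.235), without CAWS R3 replicate 1 (0.106) and with only the groups compared (0.0856). Among the comparisons made, Il1r2 was the gene that was higher in macrophages, in naive R2 (0.91 ± 0.31, adjusted p = 0.0137) and naive R3 (0.96 ± 0.32, adjusted p = 0.0126). Both calls were lost without monocytes replicate 3 (0.0793 and 0.0726) and without replicate 2 of the macrophage group (0.0509 and 0.0739). In CAWS R3, Il1r2 stood at 0.70 ± 0.34 (adjusted p = 0.0922) and passed without monocytes replicate 1 (0.0459).

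**Figure D4:**
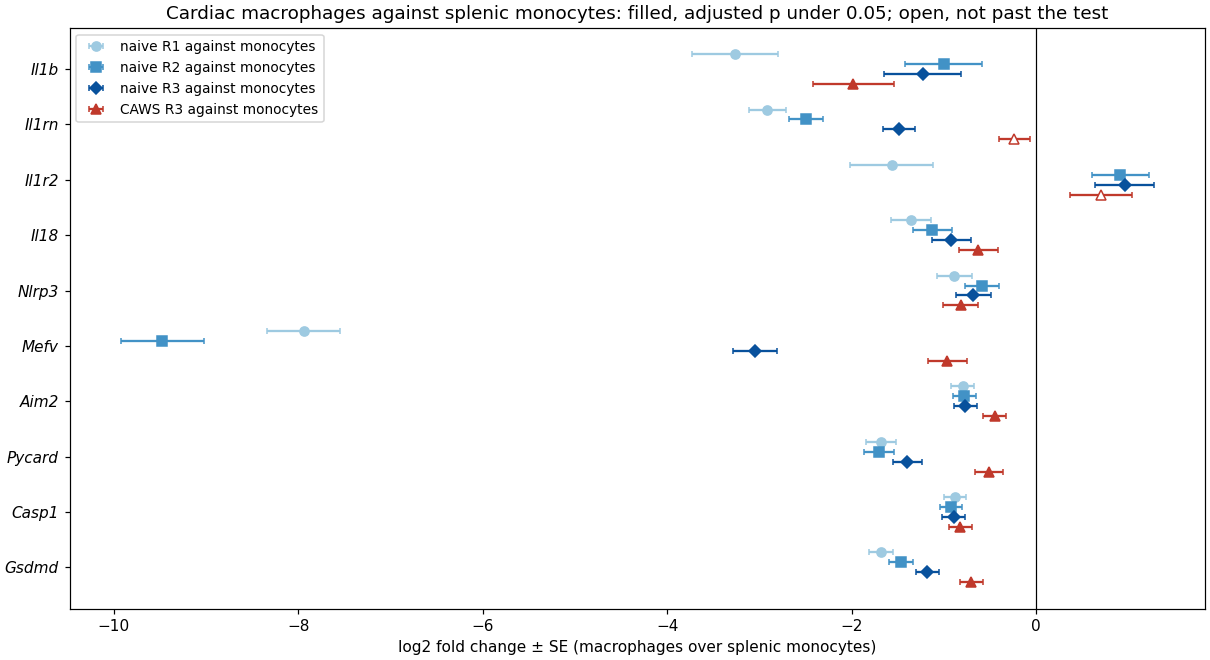
Log2 fold change of each of the 10 genes, macrophages over splenic monocytes (horizontal axis), for naive R1, R2 and R3 and for CAWS R3, with bars of 1 SE. Filled points passed the test, and open points (Il1rn and Il1r2 in CAWS R3) did not. Mefv spans -9.47 in naive R2 to -0.96 in CAWS R3, whereas Casp1 lies between -0.92 and -0.82 throughout.

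Of 41 other genes of the pathway, 36 were tested. In CAWS against naive cells, 4 were higher and 1 lower in R1, 6 higher and 2 lower in R2, and 5 higher and 2 lower in R3. Over all genes tested, 6.07% were higher and 2.87% lower in R1, 6.79% higher and 3.50% lower in R2, and 6.70% higher and 8.29% lower in R3. Their median log2 fold changes were 0.03, -0.01 and -0.07, near those of all genes tested. Pstpip1, whose protein binds pyrin, rose with Mefv in all 3 populations, by 0.68 ± 0.13 in R1 (adjusted p = 0.00166), 0.87 ± 0.13 in R2 (8.02e-05) and 1.00 ± 0.13 in R3 (9.99e-06). It measured 152, 158 and 125 CPM in CAWS R3, against 65.2, 80.0 and 71.4 CPM in naive R3. The groups do not overlap. Casp4, which encodes the mouse caspase-11 that senses lipopolysaccharide in the cytosol, rose by 0.89 ± 0.20 in R1 (adjusted p = 0.00699), 0.71 ± 0.20 in R2 (0.0249) and 0.72 ± 0.21 in R3 (0.0218). The Casp4 call in R1 failed without naive R1 replicate 2 (adjusted p = 0.0609). In R2 it failed without replicate 1 or 3 of CAWS R2 or replicate 2 or 3 of naive R2 (adjusted p up to 0.128), and in R3 without replicate 1 or 2 of either group (up to 0.0756). Monocytes averaged 193 CPM of Pstpip1 and 71.3 CPM of Casp4, above the mean of every macrophage group. Some classical monocyte markers were also higher in CAWS cells, and the part of such cells in Pstpip1 and Casp4 levels was not tested.

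Genes of the interleukin-18 arm moved in different directions. Il18bp, which encodes the soluble protein that neutralises interleukin-18, rose by 1.30 ± 0.24 in R2 (adjusted p = 0.00106) and 1.47 ± 0.27 in R3 (7.22e-04). In R3 it measured 9.92, 16.2 and 13.5 CPM in CAWS cells, against 4.92, 4.003 and 5.42 CPM in naive cells. Il18rap, the accessory chain of the interleukin-18 receptor, rose by 1.498 ± 0.30 in R2 (adjusted p = 0.00214) and 1.00 ± 0.24 in R3 (0.00665). It measured 24.4, 22.1 and 27.3 CPM in CAWS R3, against 16.8, 7.49 and 12.8 CPM in naive R3. Il18r1, the ligand-binding chain, fell by 2.07 ± 0.31 in R3 (adjusted p = 4.36e-05), at 2.19, 2.39 and 1.54 CPM in CAWS R3 against 9.32, 9.55 and 6.55 CPM in naive R3. The CAWS and naive R3 values of Il18bp, Il18rap and Il18r1 do not overlap. The Il18r1 effect in R3 minus that in R1 was -1.90 ± 0.49 (adjusted p = 0.0357), a call lost in 10 of 12 single-library omissions, all but those of CAWS R1 replicate 2 and naive R3 replicate 3, with adjusted p up to 0.129, and with no filter (0.0529).

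Il1rl1, which encodes the interleukin-33 receptor ST2, was lower in CAWS cells of all 3 populations, at a log2 fold change of -0.48 ± 0.10 in R1 (adjusted p = 0.00304), -0.58 ± 0.10 in R2 (3.26e-04) and -0.56 ± 0.10 in R3 (4.7e-04). It measured 99.5, 94.6 and 93.9 CPM in CAWS R3, against 155, 142 and 126 CPM in naive R3. Monocytes held 0.643, 0.955 and 0.392 CPM, and the log2 fold change over monocytes was 7.20 in CAWS R3 and 7.62, 7.97 and 7.76 in the naive populations R1, R2 and R3. Sigirr, a receptor-like inhibitor of interleukin-1 signalling, rose in R2 by 2.40 ± 0.38 (adjusted p = 1.84e-04), at 5.22, 5.20 and 3.35 CPM in CAWS R2 against 0.632, 1.02 and 0.969 CPM in naive R2. The remaining calls were small. Tab1, a partner of the kinase TAK1, rose in R1 (0.54 ± 0.16, adjusted p = 0.0400) and R3 (0.63 ± 0.17, adjusted p = 0.0127), and Naip5, a flagellin sensor, rose in R1 (0.49 ± 0.15, adjusted p = 0.0418). In R2 Irak3, an inhibitor of receptor signalling, rose by 0.50 ± 0.15 (adjusted p = 0.0408) and P2rx7, the ATP-gated channel that triggers Nlrp3, fell by 0.37 ± 0.12 (adjusted p = 0.0468). The Irak3 and P2rx7 calls were lost in 6 of 6 single-library omissions, with adjusted p up to 0.160 for Irak3 and 0.179 for P2rx7. The Tab1 call in R1 was lost in 5 of 6, all but naive R1 replicate 3 (adjusted p up to 0.207), and in R3 without CAWS R3 replicate 1 (0.0502) or naive R3 replicate 3 (0.0522). The Naip5 call was lost without CAWS R1 replicate 2 or 3 or naive R1 replicate 2 or 3 (up to 0.185). Naip5 and Tab1 in R1 also missed the threshold with no filter (0.0593 and 0.0570) and with only the groups compared (0.0548 and 0.0658), and Irak3 with no filter (0.0609).

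**Figure D5:**
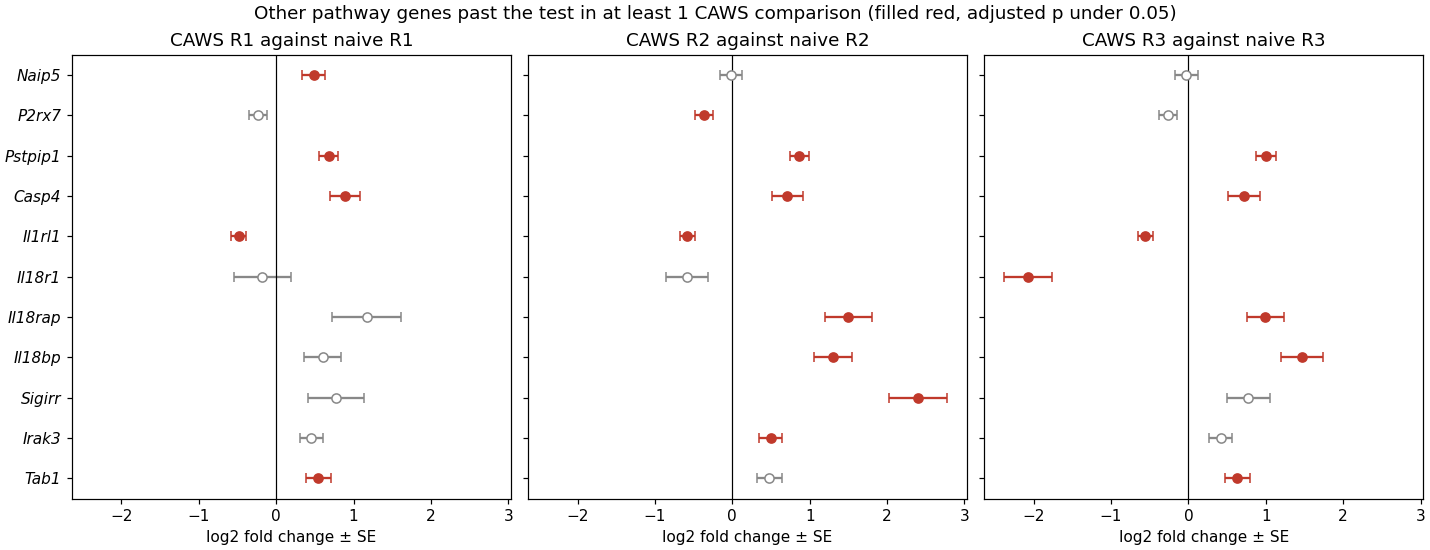
Log2 fold change, CAWS over naive, of the 11 other pathway genes that passed the test in at least 1 population (horizontal axes, same range), with bars of 1 SE. Filled red points passed and open grey points did not. Pstpip1 and Casp4 lie to the right and Il1rl1 to the left in every panel, and Il18r1 stands at -2.07 in R3.

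Counts of the 36 other pathway genes are given for each population comparison beside the share of all genes tested. In naive R2 against naive R1, 5 were higher and 1 lower (3.88% and 3.25% of all genes), led by Il18r1 (1.30 ± 0.30, adjusted p = 0.00604) and Il1rl2, an interleukin-36 receptor chain (0.77 ± 0.18, adjusted p = 0.00865), both higher in R2. In naive R3 against naive R1, 13 were higher and 7 lower (12.5% and 10.7% of all genes), led by Il18rap (3.24 ± 0.36, adjusted p = 6.89e-07), and Ninj1, the protein that ruptures the membrane of dying cells, was lower (-1.74 ± 0.27, adjusted p = 1.17e-04). In naive R3 against naive R2, 3 were higher and 3 lower (6.63% and 5.77% of all genes), led by Il18rap (1.93 ± 0.29, adjusted p = 7.79e-05). After CAWS, Il18rap was the 1 gene that passed in R2 against R1 (1.64 ± 0.31, adjusted p = 0.00336), where 2.46% of all genes were higher and 1.31% lower. In CAWS R3 against CAWS R1, 7 were higher and 6 lower (13.1% and 16.3% of all genes). In CAWS R3 against CAWS R2, 4 were higher and 3 lower (5.51% and 9.76% of all genes), among them Il1a, the gene of interleukin-1 alpha (-2.35 ± 0.55, adjusted p = 0.00452), at 0.597 ± 0.32 CPM in CAWS R3 against 3.16 ± 0.88 CPM in CAWS R2. Those Il1a levels are 25 reads over CAWS R3 and 156 reads over CAWS R2. Against monocytes, Txnip, a redox protein that binds Nlrp3, was higher in CAWS R3 (1.5002 ± 0.10) and in the naive populations R1 (1.91 ± 0.10), R2 (1.97 ± 0.10) and R3 (1.63 ± 0.10), with adjusted p-values of 2.27e-13 to 4.89e-11.

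The genes whose levels ran most like those of 5 of the 10 genes were found by Pearson's correlation of log2 CPM over the 21 libraries, which share their groups, and are given as a description. For Il1rn they were Ass1 (r = 0.947), Gbp2 (0.930) and Evl (0.927). Gbp2 averaged 111, 151 and 159 CPM in CAWS R1, R2 and R3, against 41.3, 36.1 and 53.0 CPM in naive R1, R2 and R3, and 118 CPM in monocytes. For Mefv they were Sdccag8 (0.977), Sirpb1a (0.975) and Gpr35 (0.964). Sirpb1a averaged 7.82, 15.6 and 85.6 CPM in CAWS R1, R2 and R3, against 2.07, 2.27 and 28.3 CPM in naive R1, R2 and R3, and 146 CPM in monocytes. For Il1b they were Arsi (0.897), Pip4k2a (0.884) and Tor3a (0.873), for Il1r2 Tspan33 (0.883), H2-Eb2 (0.874) and H2-DMa (0.855), and for Nlrp3 Filip1l (0.915), Trib1 (0.891) and Dennd4a (0.878).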

How the data were processed

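The deposited values are raw counts of reads per gene, made by the authors with featureCounts on mm10, per the submitters' processing notes; they are not normalised. For the aligner, annotation release and strand setting the sources used here name nothing. Each of the 21 per-sample tables held the same counts as its column of the combined table. Symbols, coordinates and promoter windows came from RefSeq tables of GRCm38.p6, in which 25275 IDs had a symbol and 1904 had none. The interleukin-36 genes Il1f6, Il1f9 and Il1f5 were matched under these older names after a first match had failed. 9 of the 10 genes had a promoter window, 12 windows in all; Gsdmd had none.

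Tests used edgeR 4.0.16 in R 4.3.3 (robust quasi-likelihood test, two-sided, TMM factors 0.909 to 1.065, filterByExpr with minimum count 10 and minimum total 15), with 1 mean per group, 14 residual degrees of freedom and Benjamini-Hochberg adjustment over all 13275 genes tested, at a threshold of 0.05. Each standard error was computed as the size of the log2 fold change over the square root of F. Levels are CPM on TMM-adjusted library sizes, and CPM per kilobase uses the deposited gene length. Replicate libraries differed by more than counting error (chi-square per degree of freedom 9.95 to 131). The tests were tested on simulated data. The 16 comparisons are the 3 of CAWS with naive cells, 6 between populations, 4 with monocytes and 3 differences between CAWS effects. Alternatives were DESeq2 1.42.0, RLE scaling, no filter, only the groups compared, a replicate block and each library left out.

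The 10 genes, the lists and the windows shown were chosen with earlier results of these data known. Named genes are the 10, other pathway genes past the test in a CAWS comparison or a difference of effects, up to 4 with the smallest p in other comparisons, and the 3 most like genes for 5 of the 10.

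The replicate number was read as the pool within each treatment, since the series design says that each pool was divided into R1, R2 and R3. Deviations of same-numbered libraries from their group means correlated at 0.02 to 0.25 within treatments over all genes tested (18 pairs), so not every pair was over 0.1. Over the 7064 genes whose log2 CPM averaged 4 or more, a limit chosen after that first result, they correlated at 0.15 to 0.64. Between treatments the range was -0.05 to 0.12 over all genes and with monocytes -0.04 to 0.34. Over the 7064 genes it was -0.3 to 0.26 between treatments and -0.18 to 0.7 with monocytes. These ranges overlap the range within treatments, so the correlations do not settle the reading of the replicate number. No pairing was assumed between treatments or with monocytes. The block was fitted within each treatment.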

Additional observations from a re-analysis of the deposited data

Results flagged for a closer look

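In 3 results the CAWS effect differed between populations by the test of the difference itself. The Il1rn effect in R3 minus that in R2 was -1.52 (adjusted p = 0.001), and the Mefv effect in R3 minus that in R2 was -3.67 (adjusted p = 0.0147). The Il18r1 effect in R3 minus that in R1 was -1.90 (adjusted p = 0.0357). The monocyte marker sums given beside Mefv differ between these groups as well, and their part in the differences was not tested. The Il1rn call held in every alternative. The Mefv call was lost without any 1 of the naive R2 libraries, and the Il18r1 call in 10 of 12 single-library omissions.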

How the results depend on the processing

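The number of the 10 genes past the test was within 1.5 times under every alternative except these. With only the groups compared it was 1 in naive R2 against naive R1 (2 with all libraries), 5 in CAWS R3 against monocytes (8 with all libraries) and 1 in the CAWS effect of R3 minus R1 (Pycard; 0 with all libraries). That last count was also 1 with DESeq2 and 1 with the replicate block, where the gene was Il1rn. Leaving out single libraries gave 1 to 3 genes for CAWS R1 against naive R1 (2 with all libraries), the low value without naive R1 replicate 2, naive R1 replicate 3 or CAWS R1 replicate 2, and 1 to 2 for the CAWS effect of R3 minus R2. The replicate block within each treatment changed 2 of 160 single-gene calls, Il1b in CAWS R2 against CAWS R1 and Il1rn in the R3 minus R1 effect, both gained. Among the other pathway genes it ended the P2rx7 call in R2 (-0.37, adjusted p = 0.0553).

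Over the single-gene results, 158 of 160 kept their side of the threshold with DESeq2, 160 of 160 with RLE scaling, 157 of 160 with no filter, 144 of 159 with only the groups compared (1 gene was filtered out there) and 1100 of 1140 with single libraries left out. No called value reversed. Values that changed sign while past the threshold under neither fit were counted as unchanged: 4 with DESeq2, 3 with RLE scaling, 8 with no filter, 3 with only the groups compared, 2 with the block and 71 with single libraries left out. For the 21 other-pathway results, run under the same alternatives after the data had been seen, 188 of 237 values kept the call, 49 lost it and 0 reversed. These are calls in CAWS against naive cells or in differences of effects. Other-pathway calls between populations and against monocytes were not run under the alternatives. The cause of these changes was not tested, except that leaving out libraries leaves fewer samples. RLE scaling moved the median of all genes by at most 0.03 (log2). Depth limits Mefv in naive R1 and R2, at 15 and 6 reads.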
